A study of Mus musculus with 32 samples.

Results

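Per1 and Per2 encode PERIOD proteins of the circadian clock, and this account covers the chromatin intervals around both genes in mouse liver. The intervals were chosen by position alone, within windows that were set with earlier results of these data known. An interval of any of 5 deposited mm9 lists was taken when its centre lay in chr11:68860000-68970000 (the Per1 window, 110 kb) or in chr1:93260000-93410000 (the Per2 window, 150 kb). This gave 97 of the 180039 intervals in the lists, of which 45 lay in the Per1 window and 52 in the Per2 window. The windows are not the genes alone. In the GRCm38.p6 gene table, Per1 is followed by Hes7 and preceded by Vamp2, and Per2 lies between Hes6 and Traf3ip1. No mm9 gene positions were used here, so no interval below is assigned to a promoter, exon or intron.

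PERIOD proteins act in the negative limb of the clock. CLOCK and BMAL1 bind E-box sequences and drive Per and Cry genes, and PERIOD and CRYPTOCHROME proteins then repress CLOCK and BMAL1. Per1 is also a well-known direct target of the glucocorticoid receptor (GR), through which adrenal hormone can shift clocks in peripheral tissues such as liver. A glucocorticoid response has been described for mouse Per2 as well.

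All livers came from adrenalectomized male C57BL/6 mice of 8 weeks, so the controls, too, lacked their main source of glucocorticoid. Dexamethasone livers were taken 1 h after an intraperitoneal dose of the synthetic GR ligand dexamethasone (dex) at 1 mg/kg in a cyclodextrin complex, and vehicle livers after cyclodextrin without the hormone. DNase I hypersensitive sites (DHS, stretches of accessible chromatin) and C/EBPβ ChIP-seq peaks each have a list for dexamethasone and a list for vehicle livers, and GR has 1 list whose name gives no treatment. Each of the DNase-seq, C/EBPβ and GR groups without adenovirus has 2 samples by the labels, and C/EBPβ is a transcription factor abundant in hepatocytes. Other dexamethasone groups of the series were given adenovirus, labelled adGFP or adDN-C/EBP. No list is named for them, and whether their GR samples entered the GR list is not known. The lists hold positions and identifiers but no signal, count or replicate column, so depth is unknown, no difference between the lists has a replicate check, and no test was run. Whole liver holds several cell types, and more cells with an open site cannot be told apart from a site more open in each cell. Positions are printed as in the lists.

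No Per2 promoter was among the promoter sequences used here, so Per2 was not searched for motifs. The Per1 promoters are shown because the E-box ties the gene to the clock and C/EBPβ is one of the factors measured. They come from RefSeq (GRCm38.p6) and were not aligned with the mm9 intervals. The first is chr11:69098699-69098998 and the second chr11:69099902-69100201, both on the plus strand, each 300 bases long and running across a transcript start. Capitals mark the E-box CACGTG and the C/EBP motif TTNCNNAA, searched on both strands.
Per1 promoter 1: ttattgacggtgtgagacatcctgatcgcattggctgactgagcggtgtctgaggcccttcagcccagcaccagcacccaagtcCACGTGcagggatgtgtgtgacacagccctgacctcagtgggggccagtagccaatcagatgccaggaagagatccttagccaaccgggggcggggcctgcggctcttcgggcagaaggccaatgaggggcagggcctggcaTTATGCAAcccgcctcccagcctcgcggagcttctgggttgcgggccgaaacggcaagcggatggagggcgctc
Per1 promoter 2: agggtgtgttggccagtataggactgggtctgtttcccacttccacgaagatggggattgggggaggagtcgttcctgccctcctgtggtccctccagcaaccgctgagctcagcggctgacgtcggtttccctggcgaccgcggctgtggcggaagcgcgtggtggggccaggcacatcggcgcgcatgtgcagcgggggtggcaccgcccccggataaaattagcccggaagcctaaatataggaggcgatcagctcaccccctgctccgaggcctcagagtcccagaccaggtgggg
The first promoter held 1 E-box, starting at base 85, and 1 C/EBP match on the minus strand, starting at base 227, and the second held neither. Of all 32851 promoter sequences in the table, 7.15% held an E-box and 40.7% a C/EBP match. The palindromic GR element and its half-site AGAACA, which the full element contains, matched in neither promoter, against 0.00913% and 19.0% of all promoters. The cyclic AMP element TGACGTCA and the D-box TTATGTAA also matched in neither, against 1.79% and 0.938% of all. These matches are letters in a window and say nothing of binding.

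Both windows were rich in accessible sites and in C/EBPβ, and the longer Per2 window held more GR peaks. The Per1 window held 14 dexamethasone DHS, 13 vehicle DHS, 9 dexamethasone C/EBPβ peaks, 7 vehicle C/EBPβ peaks and 2 GR peaks. The Per2 window held 14 dexamethasone DHS, 12 vehicle DHS, 11 dexamethasone C/EBPβ peaks, 10 vehicle C/EBPβ peaks and 5 GR peaks. For comparison the autosomes were cut into 22456 windows of 110 kb and 16465 windows of 150 kb, without the windows that touch the gene's own. As many or more dexamethasone DHS were found in 1.66% of windows for Per1 and 4.44% for Per2, and as many or more vehicle DHS in 1.45% for Per1 and 5.77% for Per2. As many or more dexamethasone C/EBPβ peaks were found in 1.36% of windows for Per1 and 1.38% for Per2, and as many or more vehicle C/EBPβ peaks in 2.35% for Per1 and 1.16% for Per2. Of these autosomal windows, 60.6% for Per1 and 66.6% for Per2 held any dexamethasone DHS. C/EBPβ counts were not compared among windows with as many DHS, so these C/EBPβ shares cannot be read apart from the DHS counts.

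GR was less exceptional at Per1. As many or more GR peaks were found in 11.7% of autosomal windows for Per1 and in 3.94% for Per2, with means of 0.515 and 0.702 GR peaks per window. Set only beside windows with at least as many dexamethasone DHS, a comparison added after seeing the counts, the share was 89.2% of 372 windows for Per1 (median 5 GR peaks, quartiles 3 and 7). It was 47.3% of 731 windows for Per2 (median 4, quartiles 2 and 7). Beside windows with exactly 14 dexamethasone DHS, also added after seeing the counts, the share was 86.8% of 136 windows for Per1 (median 4 GR peaks, quartiles 2 and 6) and 32% of 175 windows for Per2 (median 3, quartiles 2 and 5). The 2 GR peaks of Per1 were below the median and the 5 of Per2 above it in both of these sets. These shares describe positions of the 2 windows among others and are not tests.

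**Figure D1:**
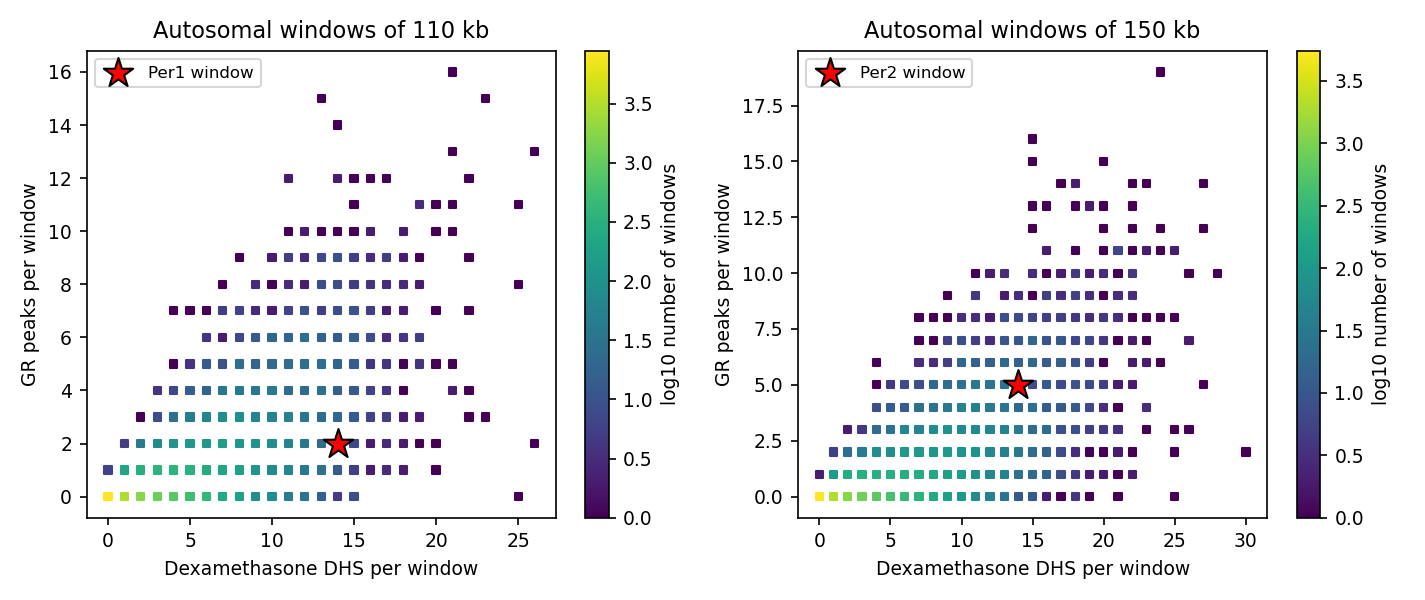
GR peaks (vertical axis) against dexamethasone DHS (horizontal axis) per autosomal window of 110 kb (left, Per1) and 150 kb (right, Per2), with the colour giving the log10 number of windows and the star the gene's own window. Both stars stand at 14 DHS, with 2 GR peaks for Per1 and 5 for Per2.

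Moving the limits of the windows outward by less than 45.6 kb would add no GR peak. The GR share does depend on the window's size: for the inner 55 kb of Per1 and the inner 75 kb of Per2, which hold the same GR peaks, it was 5.88% and 1.26% of autosomal windows of those sizes. The nearest GR peaks outside lay 181 kb and 170 kb beyond the edges of the Per1 window, and 45.6 kb and 310 kb beyond those of the Per2 window. Inside, GR peaks began 50.6 kb from the nearer edge for Per1 and 50.0 kb from it for Per2. A C/EBPβ peak stood 4.67 kb outside the Per1 window in the dexamethasone list and in the vehicle list. The nearest DHS outside it stood at 4.68 kb in the vehicle list and at 5.05 kb in the dexamethasone list. At the Per2 window the nearest such intervals outside were a vehicle DHS at 16.9 kb and a dexamethasone C/EBPβ peak at 18.3 kb.

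**Figure D2:**
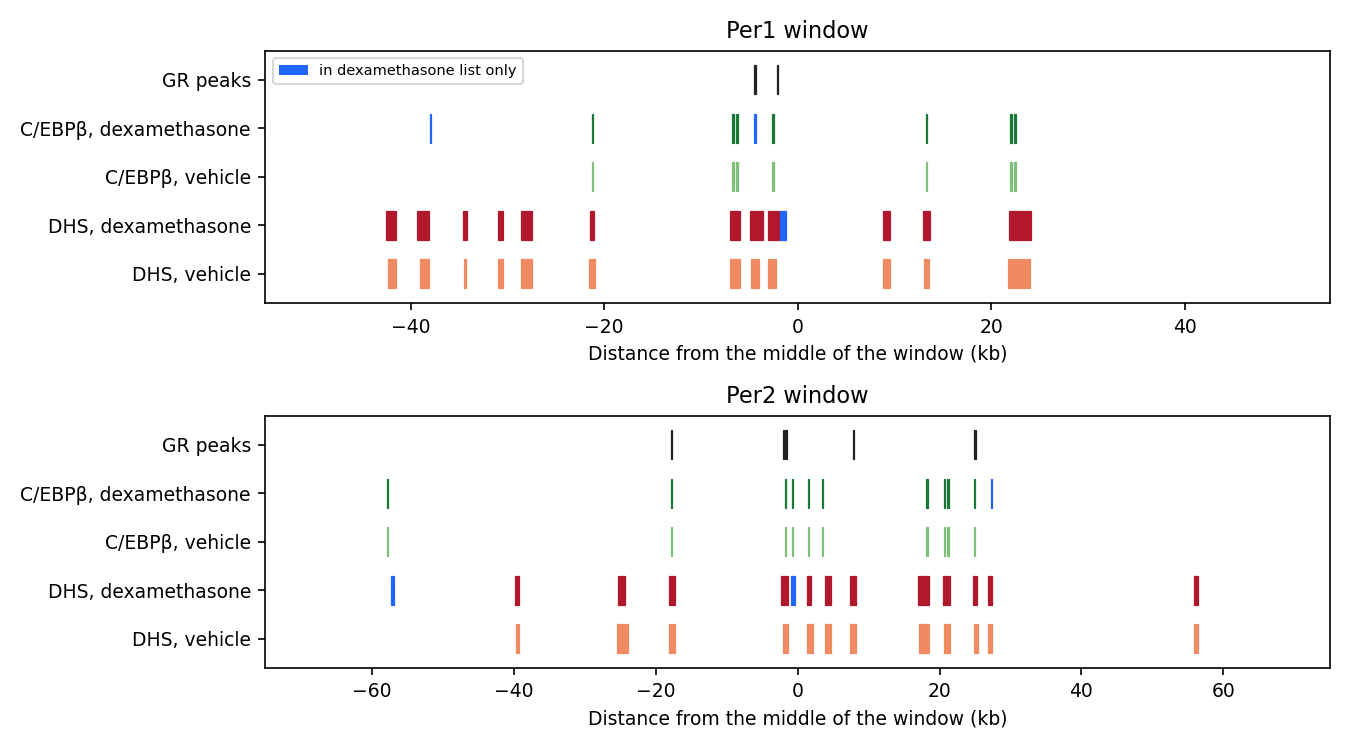
Intervals of the 5 lists in the Per1 window (top) and the Per2 window (bottom), by distance from the middle of the window in kb, with a minimum line width so that narrow intervals are visible. Blue intervals are in the dexamethasone list only, and the 2 GR peaks of Per1 lie 2.34 kb apart while the 5 of Per2 spread over 42.8 kb.

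At Per1, GR sat in 2 neighbouring DHS, both much wider in the dexamethasone list. The first GR peak, chr11:68910507-68910657, lay in a DHS of 1375 bp after dexamethasone (chr11:68910098-68911473) and 817 bp after vehicle (chr11:68910202-68911019). In the dexamethasone list the C/EBPβ peak chr11:68910514-68910664 covered 143 of its 150 bp, with centres 7 bp apart, and the vehicle list had no C/EBPβ peak there. The nearest C/EBPβ peak of the vehicle list was 1854 bp away, centre to centre, though a missing peak need not mean a missing signal. This site was therefore accessible in both lists but had C/EBPβ only in the dexamethasone list. Over the other 11557 autosomal GR peaks, 8.27% were of this kind.

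The second GR peak of Per1, chr11:68912847-68912997, lay where the dexamethasone DHS reached beyond the vehicle one. Its DHS was 1267 bp after dexamethasone (chr11:68911919-68913186) and 742 bp after vehicle (chr11:68911974-68912716). The GR peak began 131 bp beyond the right end of the vehicle interval. No C/EBPβ peak overlapped it, and the nearest, chr11:68912357-68912514 of both lists, had its centre 487 bp away inside the same DHS. Among autosomal GR peaks 1.97% lay in a shared DHS beyond the vehicle interval, and 1.39% did so without C/EBPβ.

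A dexamethasone DHS with no vehicle counterpart followed 7 bp after that DHS. It was chr11:68913193-68913784, 591 bp wide, without GR or C/EBPβ, and 477 bp from the nearest vehicle DHS. Such a DHS that overlaps no vehicle DHS is called dex-only below. Of the 14480 other autosomal dex-only DHS, 12.4% stood as close to a vehicle DHS, and their median gap was 5531 bp. A dex-only DHS of the Per2 window stood closer still, at 426 bp. The 3 neighbouring DHS of the dexamethasone list, 1375, 1267 and 591 bp wide, stand in 3686 bp, where the vehicle list has DHS of 817 and 742 bp. They were grouped after their widths were seen, so no comparison is drawn from them together.

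**Figure D3:**
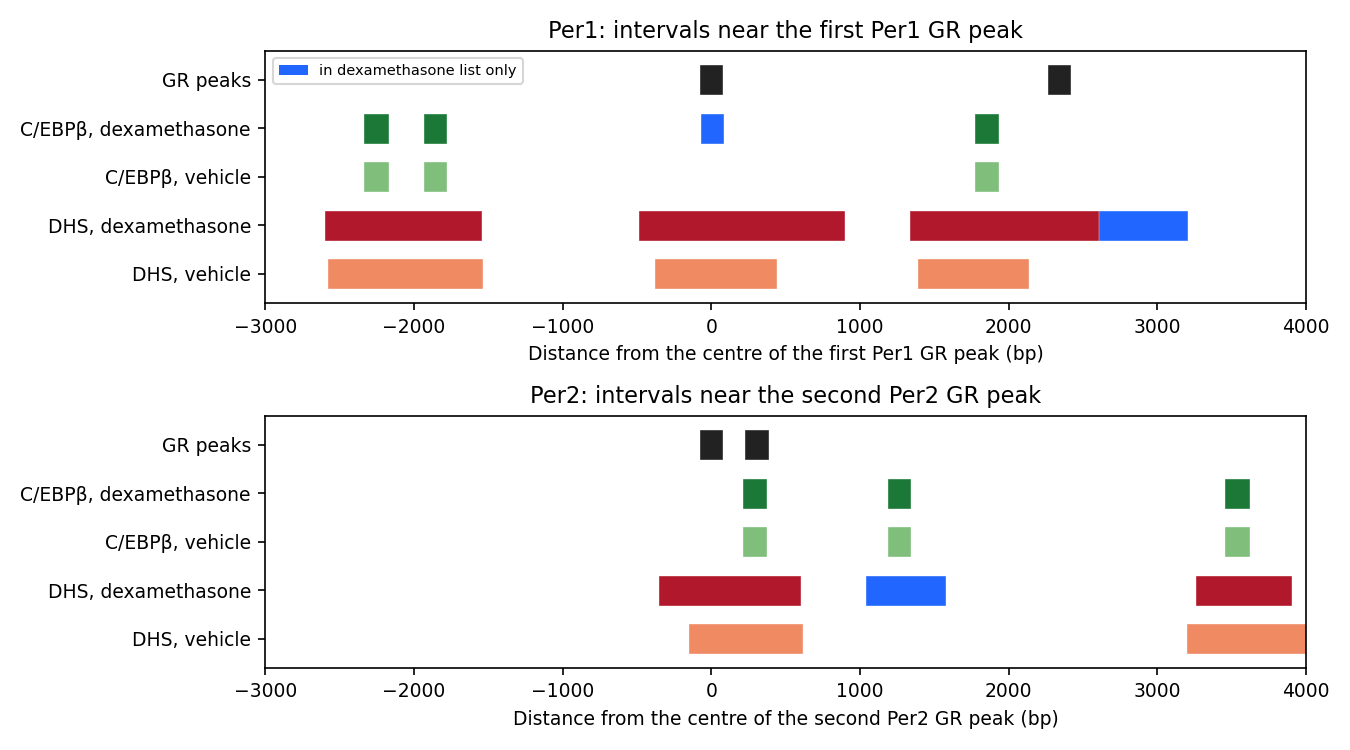
Intervals within a few kb of the first GR peak of Per1 (top) and the second GR peak of Per2 (bottom), by distance in bp from that peak's centre, one row per list, with blue for intervals in the dexamethasone list only. At Per1 both DHS with GR reach further right in the dexamethasone list, by 454 and 470 bp, and a dex-only DHS follows, while at Per2 the DHS that holds 2 GR peaks reaches 198 bp further left.

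At Per2, all 5 GR peaks overlapped a vehicle DHS, each of which had a dexamethasone counterpart, and 79.3% of autosomal GR peaks overlapped a vehicle DHS. With 5 peaks the exact 95% binomial interval runs from 47.8% to 100%. At Per1 the count was 1 of 2. A dexamethasone C/EBPβ peak overlapped 3 of the 5 at Per2 and 1 of the 2 at Per1 (62.1% of autosomal GR peaks), and a vehicle C/EBPβ peak overlapped 3 of 5 and 0 of 2 (50.5%). C/EBPβ of both lists was thus at 3 GR peaks of Per2 and at 0 of Per1 (50.2%), and C/EBPβ of the dexamethasone list only at 0 of Per2 and 1 of Per1 (11.9%). So few peaks cannot show that the loci differ from each other or from the autosomes.

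The first GR peak of Per2, chr1:93317146-93317296, was covered in full by a C/EBPβ peak of both lists, chr1:93317145-93317303, with centres 3 bp apart. Its DHS was 912 bp wide after dexamethasone and 767 bp after vehicle. The fifth, chr1:93359931-93360081, had a C/EBPβ peak of both lists 28.5 bp from its centre (chr1:93359897-93360058). Its DHS was narrower after dexamethasone, with 533 bp, than after vehicle, with 582 bp. For scale, overlapping autosomal pairs of GR and dexamethasone C/EBPβ peaks had centres a median of 19 bp apart (quartiles 8.5 and 37 bp, 7181 GR peaks).

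The second and the third GR peaks of Per2 shared a DHS. They were chr1:93332982-93333132 and chr1:93333286-93333436, with centres 304 bp apart, and only 2.56% of autosomal GR peaks had a neighbour as close. Of autosomal dexamethasone DHS with GR, 6.18% held 2 or more GR peaks. A C/EBPβ peak of both lists, chr1:93333267-93333426, overlapped the third by 140 bp and stood 290 bp, centre to centre, from the second. Their DHS was 948 bp wide after dexamethasone (chr1:93332707-93333655) and 764 bp after vehicle (chr1:93332905-93333669).

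The fourth GR peak of Per2, chr1:93342748-93342898, stood apart from C/EBPβ. The nearest C/EBPβ centre was 4257 bp away in both lists, close to the median of 4933 bp for autosomal GR peaks without a dexamethasone C/EBPβ peak. Its DHS was 863 bp wide after dexamethasone and 822 bp after vehicle. GR peaks in a vehicle DHS with no C/EBPβ in either list, as the second and the fourth of Per2, made up 21.9% of autosomal GR peaks.

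The width of DHS stands in here for the missing signal, and each shared DHS of the windows overlapped a single DHS of the other list. The GR-bound DHS of Per1 had log2 ratios of dexamethasone over vehicle width of 0.75 and 0.77. Those of Per2 had 0.25, 0.31, 0.07 and -0.13, in the order of their positions, so both Per1 values were above the 4 of Per2. Among 8045 other autosomal DHS with GR matched in this way, the median was 0.12 (quartiles -0.02 and 0.33) and 70.8% were wider after dexamethasone. A ratio as large as at Per1 was found in 6.84% of them for the first DHS and 6.51% for the second.

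How GR is assigned to a DHS bears on the second of these. Its GR peak lies outside the part common to both intervals, in bases that the dexamethasone interval has and the vehicle interval lacks. In a comparison added after seeing the data, the 133 other autosomal DHS whose GR peaks all lay outside the common part had a median of 0.96, 99.2% were wider after dexamethasone, and 74.4% had a ratio as large as its 0.77. The first DHS of Per1, with GR in the common part, stood beside 7912 such autosomal DHS (median 0.12), of which 5.66% had as large a ratio.

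Some DHS without GR at Per1 were also wider in the dexamethasone list, though their median ratio was close to the autosomal one. Of the 11 matched DHS without GR there, 7 were wider after dexamethasone and 4 narrower, with a median log2 ratio of 0.01. In the autosomal set of 35035 DHS without GR the median was -0.02 and 46.6% were wider. The highest ratio of either window, 0.86, was at a DHS without GR or C/EBPβ, 500 bp wide after dexamethasone (chr11:68880371-68880871) and 275 bp after vehicle. As large a ratio was found in 1.89% of autosomal DHS without GR, which were not matched on width. Of the 8 matched DHS without GR at Per2, 3 were wider and 5 narrower after dexamethasone, with a median of -0.09. The lowest ratio, -0.69, was at chr1:93309629-93310609, 980 bp wide after dexamethasone and 1582 bp after vehicle, and 96.4% of autosomal DHS without GR had a ratio at least as high.

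**Figure D4:**
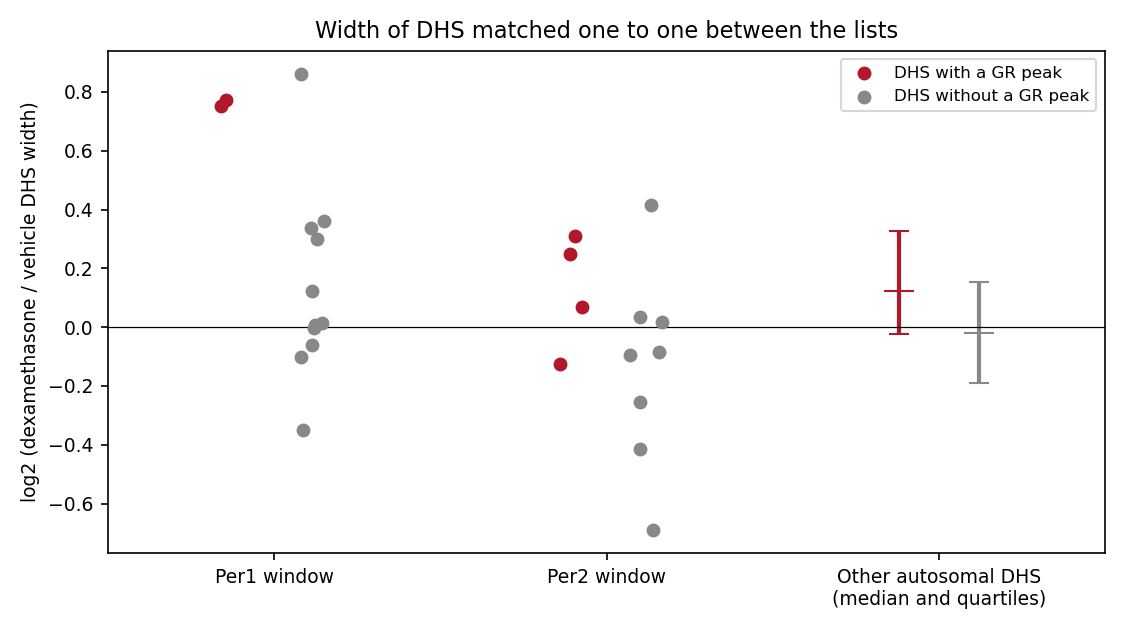
Log2 ratio of dexamethasone over vehicle width (vertical axis) of each shared DHS of the Per1 and Per2 windows, in red with a GR peak and in grey without, beside the median and quartiles of other autosomal DHS. The red points of Per1 stand at 0.75 and 0.77, above the 4 of Per2, while 1 grey point of Per1 stands higher, at 0.86.

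The broadest DHS of both windows carried no GR peak. At Per1 this was chr11:68936837-68938368, 1531 bp after dexamethasone and 1522 bp after vehicle, with 2 C/EBPβ peaks of both lists in it. The 2 DHS with GR came next in the dexamethasone list, whereas in the vehicle list DHS of 1083 and 1035 bp, both without GR, took those places. At Per2, DHS of 1548, 980 and 965 bp led the dexamethasone list, and DHS of 1582, 1530 and 943 bp the vehicle list, all without GR. The DHS of 1548 bp after dexamethasone (chr1:93352036-93353584) and 1530 bp after vehicle held 1 C/EBPβ peak of both lists.

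Summed over all DHS, accessible bases came to 12640 after dexamethasone and 10259 after vehicle in the Per1 window, a log2 ratio of 0.30. In the Per2 window they came to 10736 after dexamethasone and 10272 after vehicle, a log2 ratio of 0.06. Such sums move with how many DHS were called. Over shared DHS alone, they came to 12049 after dexamethasone and 10259 after vehicle at Per1 (13 DHS, 9 wider and 4 narrower after dexamethasone, median log2 width ratio 0.12). At Per2 they came to 9794 after dexamethasone and 10272 after vehicle (12 DHS, 6 wider and 6 narrower, median -0.03). The higher dexamethasone sum of the whole Per2 window thus came from its 2 dex-only DHS, of 406 and 536 bp. Among autosomal windows with at least 5 DHS in each list, the log2 ratio was as high as at Per1 in 26.2% of 4311 and as high as at Per2 in 57.8% of 4519. Neither window as a whole thus stood apart in its gain.

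Few intervals were in 1 list only. Dex-only DHS made up 1 of 14 at Per1 (7.14%, exact 95% interval 0.181 to 33.9%) and 2 of 14 at Per2 (14.3%, 1.78 to 42.8%), beside 23.6% of autosomal dexamethasone DHS. Vehicle-only DHS numbered 0 of 13 at Per1 and 0 of 12 at Per2, beside 14.9% of autosomal vehicle DHS, and these counts allow shares of up to 24.7% and 26.5%. The autosomal shares lie within all 4 intervals. The dex-only DHS of Per2 held no GR peak. The first, chr1:93277666-93278072, was 406 bp wide and 17198 bp from any vehicle DHS. The other, chr1:93334095-93334631, was 536 bp wide, began 440 bp after the DHS with 2 GR peaks in the dexamethasone list, and held a C/EBPβ peak of both lists, chr1:93334245-93334395. It lay 426 bp from the nearest vehicle DHS, and 11.4% of other autosomal dex-only DHS stood as close.

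C/EBPβ peaks of the dexamethasone list only were 2 of 9 at Per1 and 1 of 11 at Per2, beside 20% of autosomal dexamethasone peaks, and vehicle-only peaks were 0 of 7 and 0 of 10, beside 10.5%. Of these, only the peak at the first GR site of Per1 overlapped GR. The other at Per1, chr11:68876981-68877131, lay in no DHS, 54 bp from a dexamethasone DHS and 46 bp from a vehicle DHS. The one at Per2, chr1:93362225-93362375, lay in a DHS of both lists, 2294 bp from the nearest GR centre. GR overlapped 1 of 9 dexamethasone C/EBPβ peaks at Per1 and 3 of 11 at Per2, beside 28.8% of autosomal ones.

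For the remaining shares, the autosomal value lay inside the exact 95% interval of each window's count. These intervals were wide, treat neighbouring sites as independent and are not tests. GR lay in 2 of 14 dexamethasone DHS at Per1 (exact 95% interval 1.78 to 42.8%) and 4 of 14 at Per2 (8.39 to 58.1%), beside 17.1%. It lay in 1 of 13 vehicle DHS at Per1 and 4 of 12 at Per2, beside 15.7%. A dexamethasone C/EBPβ peak lay in 6 of 14 dexamethasone DHS at Per1 and 8 of 14 at Per2, beside 32.4%, and a vehicle peak in 5 of 13 and 6 of 12 vehicle DHS, beside 31.6%. Of dexamethasone C/EBPβ peaks, 8 of 9 at Per1 and 9 of 11 at Per2 overlapped a dexamethasone DHS, beside 85.7%. Of vehicle peaks, 7 of 7 and 7 of 10 overlapped a vehicle DHS, beside 82.8%. The 3 vehicle peaks of Per2 outside vehicle DHS were in both lists, and 1 of them is the peak in the dex-only DHS described above.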

How the data were processed

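Per the submitters' processing notes, the tools included CASAVA 1.8 and the build was mm9. How reads were aligned, how peaks were called and whether samples were pooled is not given in the sources used here. Per the file headers, the deposited values are a chromosome, a start, an end and an identifier. Intervals were treated as half-open, and 3 duplicate rows of the dexamethasone DHS list were dropped. Overlap means at least 1 bp. Autosomal shares leave out both windows, and intervals of shares are exact (Clopper-Pearson, 95%), for counting error only. They treat neighbouring sites of a window as independent, although sites of a locus are not replicates, and serve as description. Every GR peak, every DHS with GR or in 1 list only, the 3 widest DHS per list, and every C/EBPβ peak with GR or in 1 list only were named by rule. The windows, lists and rules were chosen with earlier results of these data known. Planned motif searches in peaks were not run, as no mm9 sequence was used here. The adenovirus, polymerase II and input groups were given no analysis of their own here, and whether adenovirus GR samples entered the GR list is not known. The overlap and tiling functions were tested on simulated intervals. Python 3.11.15, numpy 2.4.6, pandas 2.3.3, scipy 1.17.1 and matplotlib 3.10.9 were used.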

Additional observations from a re-analysis of the deposited data

How the results depend on the processing

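Of 124 values from 36 results under other settings, 92 were the same, 32 moved and 0 reversed. A count was the same when within a factor of 1.5, a share of windows when inside the exact 95% interval of its first value, and a width ratio when equal. With so many windows that interval is narrow, so small shifts of a share count as moved. Only a width ratio could be called reversed. Its other setting could not change it, since each shared DHS of the windows overlapped a single DHS of the other list. Counts within the gene windows also could not change where only the autosomal windows were altered. The tally therefore overstates how stable the results are. Offsetting the autosomal windows by 55 or 75 kb moved 1 value, the share with as many vehicle DHS as Per1 (1.64%, against 1.45% without the offset). With only autosomal windows that hold a DHS, the shares with as many or more intervals at Per1 were 18.4% for GR, 2.14% and 3.70% for dexamethasone and vehicle C/EBPβ, and 2.61% and 2.28% for dexamethasone and vehicle DHS. At Per2 they were 5.68%, 1.997%, 1.67%, 6.40% and 8.32% in the same order. With the inner 55 kb of the Per1 window, which held 9 dexamethasone and 8 vehicle DHS, the shares were 5.88% for GR, 0.323% and 0.358% for C/EBPβ and 1.86% for vehicle DHS. With the inner 75 kb of the Per2 window they were 1.26% for GR, 0.267% and 0.237% for C/EBPβ, and 1.64% and 1.66% for DHS. With at least as many dexamethasone DHS required, the GR shares were 89.2% for Per1 and 47.3% for Per2, and with exactly as many, 86.8% and 32%. With a gap of up to 500 bp allowed in place of overlap, 2 GR peaks of Per1 counted as in vehicle DHS and 0 outside. Under the same rule, dex-only DHS numbered 0 at Per1 and 1 at Per2. For C/EBPβ the rule was centres within 500 bp, and 2 GR peaks of Per1 then counted as with dexamethasone and 1 as with vehicle C/EBPβ. At Per2 the count rose from 3 to 4 for each C/EBPβ list, which is the same by the factor of 1.5. These settings differ by construction in the windows or distances allowed. No paired analysis was possible because the lists carry no replicate, and no replicate could be left out. Unknown depth limits every absence: an interval missing from a list need not be a site without signal.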

Other observations

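Promoters of other clock genes were searched for the same letters, from a list that names the partners and targets of PERIOD proteins, and 15 of these genes had an entry in the RefSeq table. An E-box was found in 4 of them: Cry1, which encodes a partner of PERIOD proteins in repression, Bhlhe41 and Ciart, which encode repressors of CLOCK and BMAL1, and Tef, which encodes a D-box binding factor. A C/EBP match was found in 5, Arntl (which encodes BMAL1), Cry1, Nr1d1, Per3 and Rora. The GR half-site was found in 1 (Tef), the cyclic AMP element in 1 (Hlf) and the D-box in 1 (Per3). Several of these genes have more than 1 promoter in the table, and a gene was counted once when any of them matched. The counts are therefore not comparable with shares of all promoters. No share of all genes counted in this way was taken, so the counts show neither an excess nor a lack of a motif.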
